A study of Mus musculus with 35 samples.

Results

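Csn2, which encodes β-casein, and 8 genes of the cytokine–STAT5 pathway (Cish, Socs1, Socs2, Socs3, Osm, Pim1, Stat5a and Stat5b) were followed across 35 RNA-seq libraries of mouse lin- HSPCs, the stem and progenitor fraction of bone marrow left once lineage-positive cells are removed. They are 9 of the 49671 genes counted, and all 9 were among the 17166 genes that passed edgeR's filter on low counts. Csn2 was chosen by its measured counts, which were far higher with G-NHX9-8FA and G-NHX9-midi than with the empty vector. Its values in those 2 conditions are therefore given as a description, with no test, and no comparison that uses their libraries was tested for Csn2. The empty-vector libraries also served in this choice, and the tests of Csn2 with the other constructs against them carry that limit. The other 8 genes were chosen as known parts or targets of the pathway, with earlier results of these data known.

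The study asked how the phenylalanine-glycine (FG) motifs and the DNA binding of the leukemia fusion protein NUP98–HOXA9 affect gene expression. Cells of male and female C57Bl/6 mice were transduced with a lentivirus, sorted for its fluorescence after 2 days and grown for 1 week in semisolid medium (Methocult M3434) to which GM-CSF had been added at 10 ng/mL, and each of the 7 conditions has 5 libraries. Empty is the vector with mCherry alone. G-NHX9 is full-length NUP98–HOXA9 with an mEGFP tag (NHX9 in the labels is the fusion that is also written NHA9). G-NHX9-8FA has some of its FG motifs changed from phenylalanine to alanine, and G-NHX9-21FGAA has the FG motifs of its C-terminal part changed to a pair of alanines. G-NHX9-midi is shortened to the C-terminal FG part without the GLEBS domain, and G-NHX9-midi-21FGAA is this short form with all its FG motifs changed. G-NHX9-DDNA keeps every FG motif and has a homeodomain mutated to weaken DNA binding. The full-length protein and G-NHX9-DDNA thus carry the most FG motifs, followed by G-NHX9-8FA, G-NHX9-midi and G-NHX9-21FGAA, and G-NHX9-midi-21FGAA carries none. All conditions share the medium, and GM-CSF itself acts through the pathway described here. The mice were 8 weeks old by the labels, apart from Empty replicate 4 (9 weeks), Empty replicate 5 (10 weeks) and G-NHX9 replicate 1 (11 weeks).

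Cytokines such as GM-CSF, IL-3, erythropoietin and prolactin bind receptors that have no kinase of their own and rely on Janus kinases (JAKs). The JAKs phosphorylate STAT5, which exists as the 2 closely related proteins STAT5A and STAT5B, and phosphorylated STAT5 enters the nucleus and binds palindromic sites in its target genes. Among the targets are the pathway's own inhibitors, the SOCS family and CIS (encoded by Cish), as well as the kinase gene Pim1 and the cytokine gene Osm, and in the lactating mammary gland, where prolactin activates STAT5, the casein genes. Csn2 encodes a milk protein and is best known from that tissue, not from blood.

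STAT5 binds sites of the form TTCNNNGAA, which read the same on both strands, and the promoter windows in which this motif was found are shown because they place it next to the start of Csn2 and of 2 of the inhibitors. The windows are RefSeq promoter sequences on GRCm38.p6, written 5′ to 3′ on the strand of the gene, with 250 bases before the start of transcription and 50 after it, and capitals mark the motif.
Csn2, chr5:87699376-87699675, minus strand: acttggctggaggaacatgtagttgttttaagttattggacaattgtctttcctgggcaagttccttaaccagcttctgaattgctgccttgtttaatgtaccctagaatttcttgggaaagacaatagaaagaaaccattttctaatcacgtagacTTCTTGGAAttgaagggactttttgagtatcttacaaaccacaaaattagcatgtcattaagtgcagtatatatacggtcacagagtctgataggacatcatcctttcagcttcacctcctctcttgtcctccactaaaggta
Cish, chr9:107296409-107296708, plus strand: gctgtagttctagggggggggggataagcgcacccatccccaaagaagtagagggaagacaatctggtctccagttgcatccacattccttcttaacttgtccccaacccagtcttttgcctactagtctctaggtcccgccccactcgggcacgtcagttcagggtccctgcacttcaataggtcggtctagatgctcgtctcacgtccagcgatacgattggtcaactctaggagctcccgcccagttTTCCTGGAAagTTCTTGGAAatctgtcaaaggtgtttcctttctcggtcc
Socs3, chr11:117969317-117969616, minus strand: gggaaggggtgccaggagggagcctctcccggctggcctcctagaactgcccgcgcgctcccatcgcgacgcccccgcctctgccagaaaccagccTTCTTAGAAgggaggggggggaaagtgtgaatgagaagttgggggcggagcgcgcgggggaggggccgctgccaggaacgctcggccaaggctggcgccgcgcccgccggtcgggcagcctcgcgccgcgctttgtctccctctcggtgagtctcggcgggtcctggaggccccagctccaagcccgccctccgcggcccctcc
In the Csn2 window the motif begins 93 bases before the start, as TTCTTGGAA. The Cish window holds it 2 times, as TTCCTGGAA from base 1 and as TTCTTGGAA from base 12, counted from the start as base 1. The Socs3 window holds TTCTTAGAA, which begins 154 bases before the start. Windows were found for 7 of the 9 genes, and those of Socs1, Pim1, Stat5a and Stat5b did not hold the motif. Of all 32851 windows 2726 (8.3%) held it, and of all 27025 genes with a window 2582 (9.55%) did. In all 3 genes printed here, the gene begins farther upstream in GENCODE M21 than at the RefSeq start. A match of letters is a description and says nothing about binding in these cells.

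Total counts per library lay between 31559914 and 75810659, and TMM scaling factors between 0.899 and 1.11. The lowest chi-square per degree of freedom between libraries of a condition was 22.5 over 70 pairs, so no library was a copy of another. The 5 markers of blood cells (Ptprc, Spi1, Cd53, Laptm5 and Coro1a) summed to between 2070 and 3960 CPM in every library. A gene was called higher or lower where edgeR's quasi-likelihood test gave it an adjusted p below 0.05 (Benjamini-Hochberg, over all genes tested). Levels are in CPM, a gene's count relative to the TMM-scaled library size, as mean ± SD (n = 5), and differences are log2 fold changes ± SE. Counting error alone allows up to 3 counts where none was seen.

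The share of the 8 genes other than Csn2 that was called lay above that of all genes tested in 6 of the 12 comparisons and below it in the other 6. Against Empty, 2 of the 8 were called in G-NHX9 cells (32.1% of all genes tested were called), 4 in G-NHX9-8FA cells (26.6%), 4 in G-NHX9-midi cells (40.5%), 1 in G-NHX9-21FGAA cells (27.1%), 2 in G-NHX9-midi-21FGAA cells (16.9%) and 1 in G-NHX9-DDNA cells (17.2%). Against G-NHX9, 1 was called in G-NHX9-8FA cells (14.5%), 3 in G-NHX9-midi cells (19.7%), 1 in G-NHX9-21FGAA cells (17.2%) and 3 in G-NHX9-DDNA cells (22.1%). Between G-NHX9-midi-21FGAA and G-NHX9-midi 3 were called (43.2%), and between G-NHX9-midi and G-NHX9-8FA 1 was (4.25%). Their median log2 difference lay between -0.19 and 0.15 in the 12 comparisons, and that of all genes tested between -0.02 and 0.03. The 6 comparisons with Empty share its 5 libraries, and those with G-NHX9 share its libraries likewise. With the replicate number in the labels as a block, where the numbers pair the libraries, 3 were called in G-NHX9 cells (40.2% of all genes), 2 in G-NHX9-midi-21FGAA cells (25.4%) and 2 in G-NHX9-DDNA cells (25%) against Empty, and 3 in G-NHX9-21FGAA cells (22.9%) and 4 in G-NHX9-DDNA cells (28.1%) against G-NHX9. Without the block, Socs2, Socs3, Pim1 and Stat5b made up every call, while Cish, Socs1, Osm and Stat5a were called in none of the 12 comparisons.

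**Figure D1:**
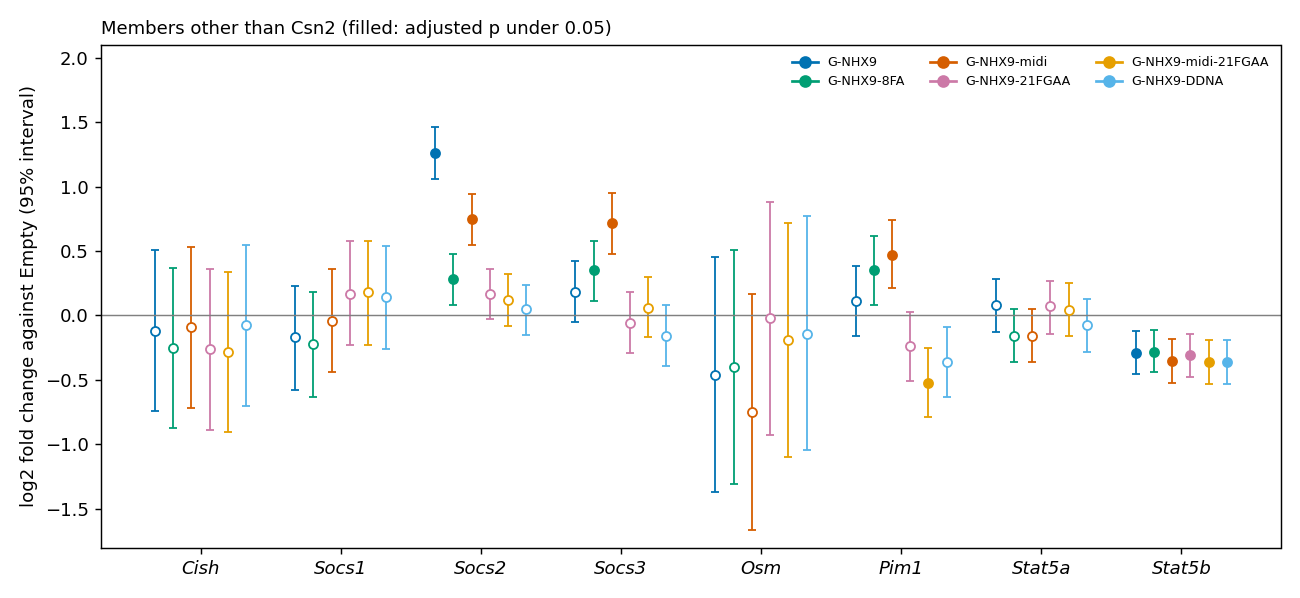
Log2 fold change of each of the 8 genes other than Csn2 (horizontal axis) in each construct against Empty (vertical axis, with its 95% interval); colors mark the constructs and filled points are those called by edgeR's quasi-likelihood test. Socs2 stands highest with G-NHX9 (1.26), Stat5b lies below 0 with all 6 constructs, and the intervals of Osm are the widest.

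Csn2 (ENSMUSG00000063157.9) spans 87692624 to 87699630 of chromosome 5, on the minus strand (GENCODE M21, GRCm38, as for all positions given). It was nearly silent in Empty cells, with 0.048, 0.0918, 0.324, 0.896 and 0.582 CPM in replicates 1 to 5 (2 to 27 counts per library). With G-NHX9-8FA it stood at 27.5, 105, 43.2, 118 and 190 CPM and with G-NHX9-midi at 45.2, 155, 92.2, 78.8 and 181 CPM. Every library of these 2 conditions lay above every other library of the series, and the 2 conditions overlapped each other. Their means were 96.8 ± 65.1 and 110 ± 56.1 CPM against 0.388 ± 0.355 CPM in Empty cells, ratios of 249 and 285. These are the values by which Csn2 was picked.

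With full-length G-NHX9, Csn2 was also higher than in Empty cells, but by less. The 5 libraries held 5.11, 2.24, 2.41, 15.7 and 15.3 CPM (mean 8.16 ± 6.81), each above every Empty library, a log2 difference of 4.50 ± 0.95 (adjusted p = 0.00038). In G-NHX9-21FGAA cells the values were 1.02, 1.41, 0.705, 6.31 and 9.17 CPM (mean 3.72 ± 3.81). Of these 5 libraries 4 lay above every Empty library, and Csn2 rose by 3.37 ± 0.95 on the log2 scale (adjusted p = 0.0082). Without its replicate 5 the rise was 2.78 (adjusted p = 0.039). The Empty libraries in these tests also served when Csn2 was picked, so the p-values are not independent of that choice and are given as a description.

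With the remaining 2 constructs, the difference of Csn2 from Empty, whose libraries also served when Csn2 was picked, did not pass the threshold. It held 0.313, 0.237, 0.391, 1.18 and 5.13 CPM in G-NHX9-midi-21FGAA cells (mean 1.45 ± 2.09; log2 difference 2.1 ± 0.98, interval 0.09 to 4.11, adjusted p = 0.14) and 0.351, 0.14, 0.348, 1.5 and 0.403 CPM in G-NHX9-DDNA cells (mean 0.548 ± 0.54; 0.59 ± 1.12, interval -1.7 to 2.88, adjusted p = 0.78). With G-NHX9-midi-21FGAA, Csn2 was above Empty in all 5 pairs of libraries with the same number, and the blocked difference was 1.73 ± 0.69 (adjusted p = 0.065). In each of these conditions 1 library stood apart from the others, replicate 5 of the former and replicate 4 of the latter. Against G-NHX9, Csn2 fell by 3.91 on the log2 scale in G-NHX9-DDNA cells (SE 0.87, adjusted p = 0.0011), and without G-NHX9-DDNA replicate 4 by 4.68 (adjusted p = 0.00094). G-NHX9-21FGAA and G-NHX9 differed by -1.13 ± 0.72 (interval -2.61 to 0.35, adjusted p = 0.34). In the blocked fit this difference was -1.32 ± 0.45 and passed the threshold (adjusted p = 0.033), and Csn2 was lower in all 5 pairs of libraries with the same number.

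Ordered by mean level, Csn2 ran from G-NHX9-midi through G-NHX9-8FA, G-NHX9, G-NHX9-21FGAA, G-NHX9-midi-21FGAA and G-NHX9-DDNA to Empty. Without its replicate 5, G-NHX9-midi-21FGAA stood at 0.531 CPM, below G-NHX9-DDNA, and without its replicate 4, G-NHX9-DDNA stood at 0.311 CPM, below Empty, so the order of the last 3 rests on single libraries. In this order only G-NHX9-8FA and G-NHX9 were neighbors whose libraries did not overlap. The ratio of the means was 11.9 between G-NHX9-8FA and G-NHX9 and 13.5 between G-NHX9-midi and G-NHX9. The short form without FG motifs held 0.0131 times the mean level of G-NHX9-midi, a ratio that its replicate 5 raises (mean 1.45 CPM with it and 0.531 CPM without it). Csn2 was also the most variable of the 9 genes within a condition, with a highest library that exceeded the lowest by 4.01 to 21.7 times depending on the condition. The highest library was replicate 4 in 3 conditions and replicate 5 in 4.

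**Figure D2:**
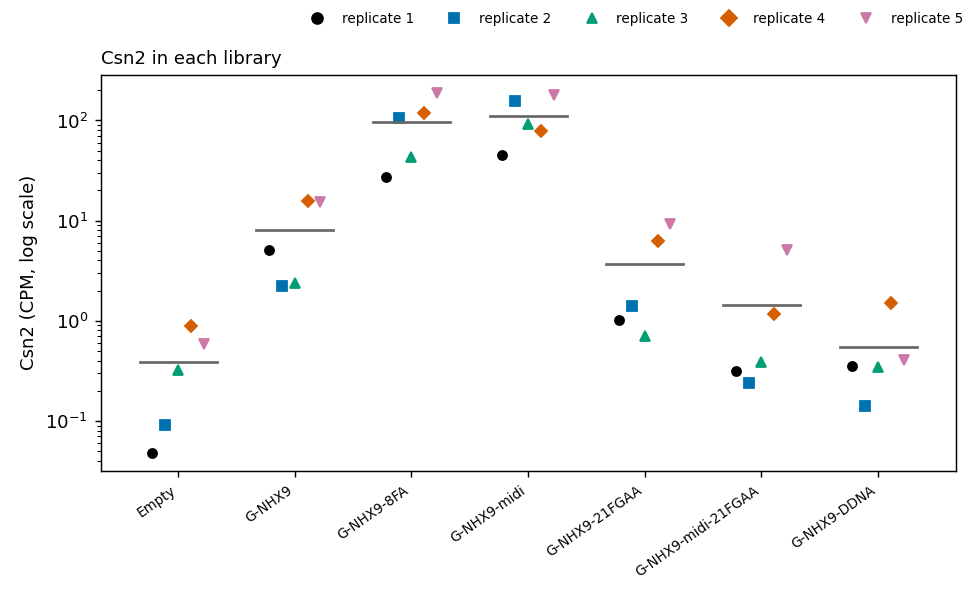
Csn2 level in each library (vertical axis, CPM on a log scale) by condition (horizontal axis); symbols mark the replicate number and lines the mean of 5 libraries. G-NHX9-8FA and G-NHX9-midi libraries, between 27.5 and 190 CPM, lie above all others, whose highest value is 15.7 CPM in a G-NHX9 library.

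The other casein genes of the same locus on chromosome 5 had more counts with G-NHX9, G-NHX9-8FA and G-NHX9-midi than in Empty cells, though far fewer than Csn2, and not with G-NHX9-21FGAA. Of 5 neighbors, Csn1s1, Csn1s2a and Csn1s2b passed the filter, whereas Csn3 (0 to 4 counts per library) and the enamel gene Odam (0 or 1) did not. Csn1s1 and Csn1s2a encode calcium-sensitive milk caseins, and Csn1s2b is a close relative of the latter. The 3 genes passed the filter through the conditions in which they were high, so a test had its direction set in advance and their counts are given as a description, with no test. Each Empty library held at most 3 counts of each.

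Csn1s2a (chromosome 5 from 87774567 to 87788797) held 0 or 1 counts per library in Empty cells, 3 to 12 in G-NHX9 cells, 7 to 417 in G-NHX9-8FA cells and 270 to 694 in G-NHX9-midi cells. G-NHX9-8FA replicate 2 held 417 of the 585 counts of its condition, and its count lay within the range of the G-NHX9-midi libraries. With G-NHX9-21FGAA, G-NHX9-midi-21FGAA and G-NHX9-DDNA, Csn1s2a held 0 to 2, 0 to 4 and 0 to 3 counts.

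Csn1s1 (from 87666208 to 87682578) held 0 to 3 counts per library in Empty cells, 4 to 14 in G-NHX9 cells, 3 to 22 in G-NHX9-8FA cells and 32 to 91 in G-NHX9-midi cells. The G-NHX9-midi libraries thus lay above all others, while those of G-NHX9 and G-NHX9-8FA overlapped. Csn1s2b (from 87808082 to 87824426) ran the other way among the 3 constructs. It held 0 or 1 counts in Empty cells, 14 to 24 in G-NHX9 cells, 3 to 9 in G-NHX9-8FA cells and 0 to 6 in G-NHX9-midi cells. Every G-NHX9 library lay above every other library, and G-NHX9-8FA and G-NHX9-midi overlapped. No library of G-NHX9-21FGAA or G-NHX9-midi-21FGAA had a count of Csn1s2b, and those of G-NHX9-DDNA had 0 to 3.

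**Figure D3:**
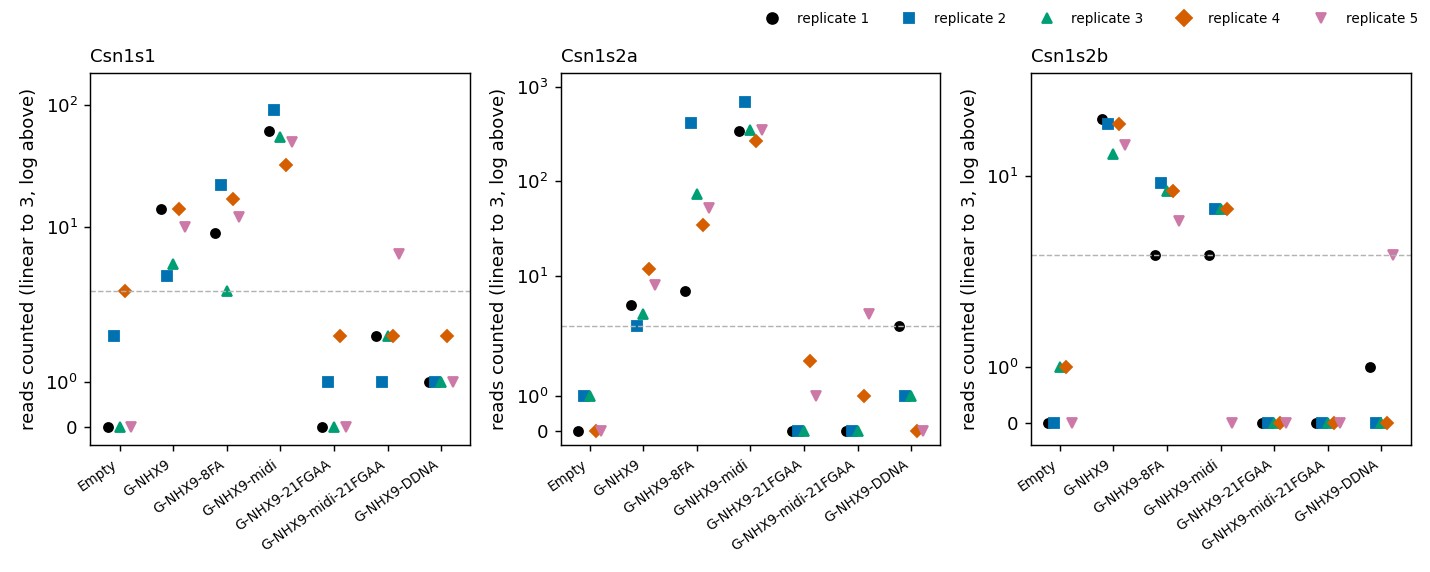
Reads counted on Csn1s1, Csn1s2a and Csn1s2b in each library (vertical axis, linear up to 3 counts and logarithmic above) by condition (horizontal axis); symbols mark the replicate number and the dashed line 3 counts. Csn1s2a is highest in G-NHX9-midi libraries (270 to 694 counts), while Csn1s2b is highest in G-NHX9 libraries (14 to 24 counts).

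Defining genes of mammary epithelium were at or near 0 in the same libraries. Glycam1 had no count in any of the 35 libraries, and the summed level of 8 such markers (Wap, Lalba, Glycam1, Btn1a1, Elf5, Krt8, Krt18 and Epcam) was 0.539 to 1.62 CPM in G-NHX9-8FA libraries and 0.9 to 1.48 CPM in G-NHX9-midi libraries, below the 2.05 to 4.51 CPM of Empty libraries. Only Btn1a1 and Epcam passed the filter. Btn1a1, a milk fat globule protein gene, was at 0.069 ± 0.0384 CPM in Empty cells, 0.191 ± 0.0587 CPM with G-NHX9, 0.214 ± 0.137 CPM with G-NHX9-8FA and 0.577 ± 0.14 CPM with G-NHX9-midi. It is given as a description too, since it was named after its values were seen and it passed the filter only through G-NHX9-midi. Epcam, a gene of epithelial surfaces that some blood precursors also express, stood at 2.69 ± 0.968 CPM in Empty cells and at 0.334 ± 0.119 CPM with G-NHX9-midi. It made up most of the summed level in Empty cells, whose mean was 2.97 CPM. The lower sums with G-NHX9-8FA and G-NHX9-midi thus reflect Epcam, while Btn1a1 went the other way.

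Markers of several blood lineages also differed from Empty with G-NHX9-8FA and G-NHX9-midi, the constructs with the highest Csn2 level. This was not so for all constructs in which Csn2 rose, since none of 8 erythroid markers was called with G-NHX9 and 5 were higher with G-NHX9-21FGAA. The summed level of the erythroid markers was 109 to 348 CPM in Empty libraries, 21.8 to 47.5 CPM with G-NHX9-8FA and 40.4 to 64.1 CPM with G-NHX9-midi, with 8 and 7 of them lower. The 6 eosinophil markers summed to 1380 to 1910 CPM in Empty libraries, 71.4 to 290 CPM with G-NHX9-8FA and 35.3 to 120 CPM with G-NHX9-midi, and all 6 were lower in both. The 6 megakaryocyte markers were also all lower in both, and 6 of 8 mast cell markers were lower with each of G-NHX9, G-NHX9-8FA and G-NHX9-midi. The 7 neutrophil markers summed to 8890 to 12800 CPM in Empty libraries, to 15100 to 33600 CPM with G-NHX9-8FA, where 4 were higher, and to 10100 to 21500 CPM with G-NHX9-midi, where 2 were higher and 3 lower. Of 7 macrophage markers, 1 was higher and 1 lower with G-NHX9-8FA, and 1 was higher and 4 lower with G-NHX9-midi. These marker counts stand against 32.1% of all genes called with G-NHX9, 26.6% with G-NHX9-8FA, 40.5% with G-NHX9-midi and 27.1% with G-NHX9-21FGAA. With G-NHX9-8FA, the share of macrophage markers called was near that of all genes. In these bulk samples, fewer cells of a type and less RNA per cell cannot be told apart. The part of the cell mixture in the levels of Csn2 and of the genes below was not tested.

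Pim1, a kinase gene that STAT5 induces and whose product supports survival, lies on chromosome 17 from 29490753 to 29496112 and overlaps Gm26885 on the other strand. It held 490, 430, 467, 547 and 421 CPM in Empty libraries, 519, 584, 494, 714 and 684 CPM with G-NHX9-8FA and 552, 756, 600, 643 and 721 CPM with G-NHX9-midi. All 5 G-NHX9-midi libraries lay above every Empty library, and 3 of the G-NHX9-8FA libraries did. Pim1 rose by 0.47 ± 0.13 with G-NHX9-midi (adjusted p = 0.0041) and by 0.35 ± 0.13 with G-NHX9-8FA (0.048). The smaller rise lost its call without any of Empty replicates 1, 2, 3 and 5 or G-NHX9-8FA replicates 2, 4 and 5 (0.068 to 0.19). With G-NHX9-midi-21FGAA, Pim1 stood at 342, 365, 304, 292 and 340 CPM, below every Empty library, and fell by 0.52 on the log2 scale (SE 0.13, adjusted p = 0.0069). Between G-NHX9-midi and its form without FG motifs the difference was -0.99 ± 0.13 (2.2e-07), with no overlap of the libraries.

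Full-length G-NHX9 left Pim1 at 508 ± 83.2 CPM against 471 ± 50.8 CPM in Empty cells, a log2 difference of 0.11 (interval -0.16 to 0.38, adjusted p = 0.57). In G-NHX9-DDNA cells it stood at 377, 336, 298, 370 and 457 CPM, lower than with G-NHX9 (-0.47 ± 0.13, 0.0089). Against Empty the difference was -0.36 ± 0.13 (interval -0.63 to -0.09, adjusted p = 0.056), which passed the threshold in the blocked fit (0.049). G-NHX9-midi exceeded G-NHX9 by 0.36 ± 0.13 (0.047), a call that was lost without any of G-NHX9 replicates 2 to 5 or G-NHX9-midi replicates 2, 4 and 5 (0.052 to 0.19). In G-NHX9-21FGAA cells the level was 399 ± 68.5 CPM, -0.24 ± 0.13 from Empty (interval -0.51 to 0.03, 0.18).

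Socs2, an inhibitor best known for restraining growth hormone signals, separated the conditions more sharply than any other of the 8 genes. The gene spans 95385362 to 95417180 of chromosome 10 (minus strand). Its 5 Empty libraries held 30, 28, 23.7, 24.5 and 26.8 CPM (26.6 ± 2.57), and its 5 G-NHX9 libraries 65.4, 65.5, 62.3, 63.5 and 61.4 CPM (63.6 ± 1.83). The groups did not overlap, and Socs2 rose by 1.26 ± 0.10 on the log2 scale (adjusted p = 8.1e-12). With G-NHX9-midi the values were 44.5, 49.1, 44.3, 43.2 and 42.1 CPM (0.75 ± 0.10, 1.8e-07), above every Empty library and below every G-NHX9 library. With G-NHX9-8FA they were 33.2, 25.6, 27.5, 38.9 and 36.8 CPM (0.28 ± 0.10, 0.028). This last rise overlapped Empty in 2 of its libraries and lost its call without any of Empty replicates 3, 4 and 5 or G-NHX9-8FA replicates 1, 4 and 5 (0.069 to 0.19).

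The other 3 constructs held Socs2 at 27.5 to 29.8 CPM on average, with log2 differences from Empty of 0.05 to 0.17 (intervals between -0.15 and 0.36, adjusted p between 0.21 and 0.8). All changed forms lay below full-length G-NHX9 in each of their libraries. The difference from G-NHX9 was -0.97 ± 0.10 for G-NHX9-8FA (1.4e-08), -0.51 ± 0.10 for G-NHX9-midi (0.00019), -1.09 ± 0.10 for G-NHX9-21FGAA (2.9e-10) and -1.21 ± 0.10 for G-NHX9-DDNA (2.6e-11). G-NHX9-midi exceeded G-NHX9-8FA (0.46 ± 0.10, 0.0031) and its own form without FG motifs (-0.62 ± 0.10 for the latter against G-NHX9-midi, 2.8e-06). The order of the constructs for Socs2, with G-NHX9 first, thus was not that of Csn2, in which G-NHX9-midi and G-NHX9-8FA stood first.

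Socs3 is an inhibitor that blocks signals through gp130 and the G-CSF receptor. Its mean, like those of Csn2 and Pim1, was highest with G-NHX9-midi, then with G-NHX9-8FA and then with G-NHX9. For Socs3, the libraries of G-NHX9-8FA and G-NHX9 overlapped and differed by 0.16 ± 0.12 (interval -0.07 to 0.4, adjusted p = 0.37). The order of the other conditions was not that of Csn2. The gene spans 117966079 to 117970047 of chromosome 11 (minus strand). Empty libraries held 200, 134, 160, 153 and 174 CPM, and G-NHX9-midi libraries 251, 323, 242, 239 and 295 CPM, all above every Empty library (0.72 ± 0.12, adjusted p = 6.6e-06). G-NHX9-8FA libraries held 234, 234, 178, 208 and 189 CPM (0.35 ± 0.12, 0.024), of which 3 lay above every Empty library. That call was lost without any of Empty replicates 2, 3 and 4 or G-NHX9-8FA replicates 1, 2 and 4 (0.059 to 0.1). G-NHX9 cells had 186 ± 35.2 CPM (0.18 ± 0.12, interval -0.05 to 0.42, 0.25), and G-NHX9-midi exceeded G-NHX9 by 0.54 ± 0.12 (0.00092). The form of G-NHX9-midi without FG motifs differed from it by -0.65 ± 0.12 (2.2e-05), again with no overlap. G-NHX9-midi and G-NHX9-8FA differed by 0.37 ± 0.12 (interval 0.14 to 0.61, 0.059), although every G-NHX9-midi library lay above every G-NHX9-8FA library. G-NHX9-DDNA was lower than G-NHX9 (-0.34 ± 0.12, 0.031), a call that was lost without any of G-NHX9 replicates 1 and 4 or G-NHX9-DDNA replicates 1, 2, 3 and 5 (0.05 to 0.19).

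**Figure D4:**
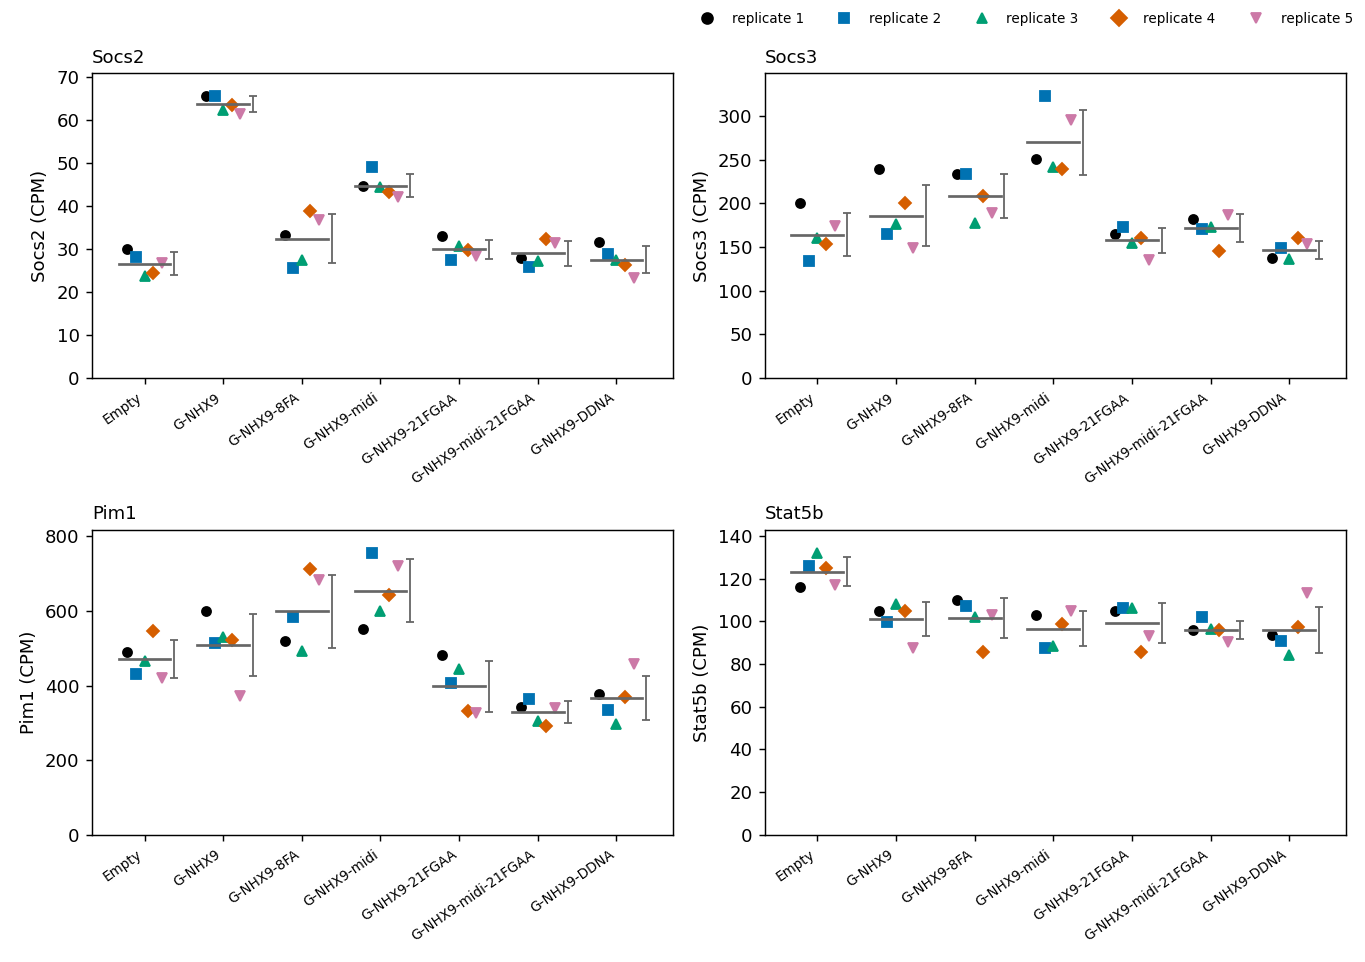
Levels of Socs2, Socs3, Pim1 and Stat5b in each library (vertical axes, CPM from 0) by condition (horizontal axis); symbols mark the replicate number, lines the mean and bars the SD of 5 libraries. Socs2 peaks with G-NHX9 (63.6 CPM), Socs3 and Pim1 with G-NHX9-midi (270 and 655 CPM), and Stat5b is highest in Empty libraries (123 CPM).

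Stat5b, 1 of the 2 genes for STAT5 itself, was lower with every construct. The gene spans 100780731 to 100850724 of chromosome 11 (minus strand). Empty libraries held 116, 126, 132, 125 and 117 CPM (123 ± 6.76), and the means of the constructs lay between 95.8 and 102 CPM. In each of the 6 conditions all 5 libraries lay below every Empty library. The log2 difference was -0.29 ± 0.08 with G-NHX9 (adjusted p = 0.0069), -0.28 ± 0.08 with G-NHX9-8FA (0.011), -0.35 ± 0.08 with G-NHX9-midi (0.00077), -0.31 ± 0.08 with G-NHX9-21FGAA (0.005), -0.36 ± 0.08 with G-NHX9-midi-21FGAA (0.0034) and -0.36 ± 0.08 with G-NHX9-DDNA (0.0031). No comparison between constructs was past the threshold. The fall depends in part on the scaling, since without TMM factors it was -0.11 with G-NHX9 (adjusted p = 0.24) and -0.13 with G-NHX9-21FGAA (0.19). Without TMM factors the median log2 difference of all genes from Empty lay between 0.077 and 0.186, in place of -0.02 to 0.03, and the share of called genes that were higher was 58.5 to 83.1% in place of 50.4 to 57.3%. All 6 constructs carry the mEGFP tag that Empty lacks, so the fusion and its tag cannot be told apart in this comparison.

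Stat5a, the other STAT5 gene, lies next to it from 100859351 to 100885169, where it overlaps Stat3 on the other strand. Its means lay between 46.4 and 54.7 CPM in the 7 conditions. Against Empty its log2 differences were -0.16 to 0.08 (intervals between -0.36 and 0.28, adjusted p between 0.22 and 0.82). The 2 genes are similar in sequence, and reads that fit both could not be placed by the counts alone.

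Cish, whose product CIS is induced by STAT5 and binds the activated receptors, and Socs1, which inhibits JAKs directly, varied with the replicate number more than with the construct. Cish lies on chromosome 9 from 107296026 to 107302784 and overlaps Gm17040 and Gm17041 on the other strand. It held 120, 148, 153, 279 and 279 CPM in Empty libraries, and 79.1 to 157 CPM in the 7 libraries numbered 1 against 188 to 306 CPM in the 7 numbered 5. Cish was highest in replicate 5 in 5 conditions and in replicate 4 in 2. Its log2 differences from Empty were -0.28 to -0.07 (intervals between -0.9 and 0.55, adjusted p between 0.57 and 0.91). Socs1, at 10782240 to 10785536 of chromosome 16 (minus strand), was at 22.7 to 37.4 CPM in libraries numbered 1 and at 31.9 to 63.3 CPM in all others, and it was lowest in replicate 1 in 6 of 7 conditions. Its differences from Empty were -0.22 to 0.18 (intervals between -0.63 and 0.58, adjusted p between 0.45 and 0.89). In the blocked fit, Socs1 was higher with G-NHX9-21FGAA than with G-NHX9 (0.34 ± 0.12, adjusted p = 0.04), whereas without the block the adjusted p was 0.27.

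Osm encodes oncostatin M, a cytokine of the IL-6 family that myeloid cells secrete and that STAT5 induces. It lies on chromosome 11 from 4236420 to 4241026. The library numbered 1 was the highest in every condition, at 136 to 325 CPM, whereas the other 28 libraries held 50.5 to 126 CPM. In Empty cells the values were 325, 87.7, 95, 122 and 80.8 CPM, and in G-NHX9-midi cells 136, 66.6, 50.5, 103 and 67.8 CPM. Against Empty, Osm differed by -0.75 to -0.02 (intervals between -1.66 and 0.88, adjusted p between 0.19 and 0.98). With the block, which the check of the numbers warrants for this comparison, Osm was lower in G-NHX9 cells than in Empty cells (-0.49 ± 0.17, adjusted p = 0.02, in 5 of 5 pairs). On the same terms it was higher than with G-NHX9 in G-NHX9-21FGAA cells (0.54 ± 0.17, 0.017) and in G-NHX9-DDNA cells (0.45 ± 0.17, 0.043).

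The share of variance that went with the condition was 91.3% for Socs2, 87.3% for Csn2, 76.3% for Pim1, 73.7% for Socs3 and 54% for Stat5b. It was 30.9% for Stat5a, 19.1% for Socs1, 13.4% for Osm and 3.86% for Cish. The replicate number took 74.7% for Osm, 73% for Cish and 56.2% for Socs1, and 11.7% or less for the other 6 genes. What the number stands for was not given by the labels. A score of sex-linked transcripts (log2 of Xist over summed Y-linked transcripts, centered on the mean of all libraries) also moved with it, with means of -0.6, -0.56, -0.55, 0.62 and 1.09 for the numbers 1 to 5, and its part in these values was tested only as a covariate. Of the deviations from the condition mean over 35 libraries, those of Csn2 and Cish had r = 0.71, those of Cish and Socs1 0.66, those of Csn2 and Socs1 0.48 and those of Socs1 and Osm -0.55. These are descriptions, since the libraries of a number share more than these genes.

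**Figure D5:**
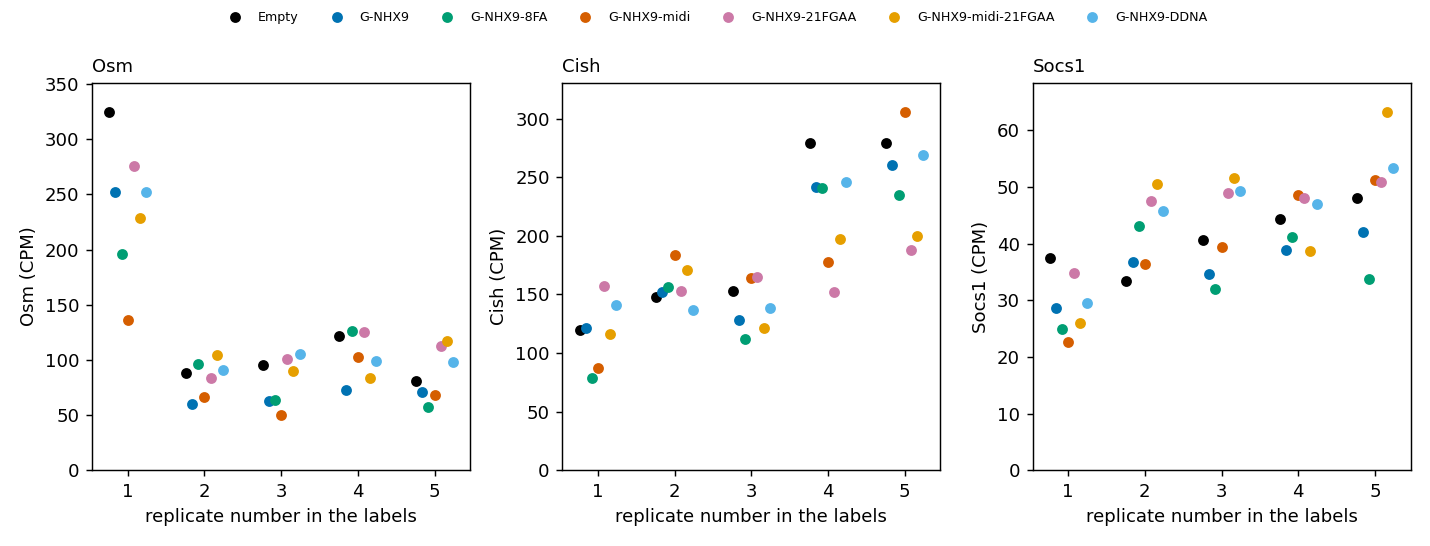
Levels of Osm, Cish and Socs1 (vertical axes, CPM from 0) by the replicate number in the labels (horizontal axis), with 1 point per library colored by condition. All 7 Osm libraries numbered 1 (136 to 325 CPM) lie above the other 28 (50.5 to 126 CPM), and Cish is highest among the libraries numbered 4 and 5.

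Per kilobase of merged exon, the level in Empty cells was highest for Pim1 (140 CPM per kb), followed by Osm (62.5), Socs3 (56.8), Cish (30.5), Stat5b (22.2), Socs1 (14), Stat5a (7.26) and Socs2 (2.79). Csn2 was at 0.0561 CPM per kb in Empty cells and at 14 and 16 CPM per kb with G-NHX9-8FA and G-NHX9-midi, near the level of Socs1. The merged exons of Csn2 add up to 6926 bases, nearly the whole gene, so this scale gives it a low value.

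Calls among the ligands, receptors and kinases upstream of STAT5 went both ways, and their counts stand against 32.1% of all genes called with G-NHX9, 26.6% with G-NHX9-8FA, 40.5% with G-NHX9-midi, 27.1% with G-NHX9-21FGAA, 16.9% with G-NHX9-midi-21FGAA and 17.2% with G-NHX9-DDNA. From each list, genes are named for the constructs with which they were among the 2 largest rises or falls, and some were also called with others. Of 12 cytokine genes that signal through STAT5 or its relatives, 5 passed the filter, and against Empty 0 rose and 1 fell with G-NHX9, 0 and 0 with G-NHX9-8FA, 0 and 1 with G-NHX9-midi, 3 and 0 with G-NHX9-21FGAA, 2 and 0 with G-NHX9-midi-21FGAA and 1 and 0 with G-NHX9-DDNA. Of 18 receptor genes tested, 2 rose and 7 fell with G-NHX9, 3 and 7 with G-NHX9-8FA, 3 and 10 with G-NHX9-midi, 6 and 6 with G-NHX9-21FGAA, 4 and 5 with G-NHX9-midi-21FGAA and 3 and 5 with G-NHX9-DDNA. Their median log2 difference was -0.37, -0.38, -0.56, 0.02, 0.14 and -0.13 in the same order. Flt3, the receptor of a progenitor growth factor, was higher with G-NHX9 (log2 difference 5.61) and G-NHX9-midi (3.56). With G-NHX9-8FA it stood at 1.54 ± 0.364 CPM against 0.187 ± 0.104 CPM in Empty cells, with no overlap. At this low level in Empty cells, Flt3 may have passed the filter only through conditions in which it was high. Its differences are therefore given as a description, although it is among the receptor genes counted above as risen with G-NHX9 and G-NHX9-midi. Il2ra, the α chain of the IL-2 receptor and a known STAT5 target, rose with G-NHX9 (4.45 ± 0.51, adjusted p = 3.9e-08), G-NHX9-midi (2.73 ± 0.48, 2.6e-05) and G-NHX9-8FA (2.58 ± 0.48, 0.00012). Csf3r, the G-CSF receptor, rose with G-NHX9-8FA (1.03 ± 0.23, 0.00079) and fell by 1.33 with G-NHX9-midi-21FGAA (0.00046). With G-NHX9-midi, Csf3r was at 67.7 ± 2.69 CPM, beside 74.4 ± 8.49 CPM with G-NHX9-8FA, and above every Empty library (36.3 ± 3.98 CPM).

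Epor, the erythropoietin receptor, was at 3.38 ± 0.596 CPM in Empty cells and fell with G-NHX9-8FA (-2.00 ± 0.26, 6.6e-07) and G-NHX9-midi (-3.02 ± 0.28, 3.6e-10). It rose with G-NHX9-21FGAA (1.15 ± 0.24, 0.00067) and G-NHX9-midi-21FGAA (0.82 ± 0.24, 0.018, and 0.064 without G-NHX9-midi-21FGAA replicate 5). With G-NHX9-DDNA the difference was 0.57 ± 0.24 (0.1, and 0.022 with the block). The 8 erythroid markers were lower with G-NHX9-8FA and G-NHX9-midi as given above. Of them, 5 were higher with G-NHX9-21FGAA (27.1% of all genes were called), 6 with G-NHX9-midi-21FGAA (16.9%) and 3 with G-NHX9-DDNA (17.2%). Their part in the values of Epor was not tested. Csf2rb, the β chain that GM-CSF and IL-3 share, was at 1440 ± 253 CPM in Empty cells. It fell by 0.52 with G-NHX9-midi (SE 0.17, 0.013, and 0.057 without G-NHX9-midi replicate 2) and was not called with the other constructs, between -0.31 and 0.24. Il3ra, the IL-3 receptor α chain, fell with G-NHX9-21FGAA (-0.57 ± 0.13, 0.001), G-NHX9-DDNA (-0.54 ± 0.13, 0.0038) and G-NHX9-midi-21FGAA (-0.45 ± 0.13, 0.014). The last of these calls was lost without Empty replicate 4 or G-NHX9-midi-21FGAA replicate 1 (0.05 to 0.066). Prlr, the prolactin receptor through which Csn2 is induced in the mammary gland, was at 0.149 to 0.318 CPM on average and was not called against Empty (adjusted p between 0.14 and 0.86).

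Lifr, which joins gp130 to bind LIF, rose with G-NHX9-21FGAA (2.76 ± 0.26, 1.2e-08) and with G-NHX9-DDNA (0.83 ± 0.25, 0.021). Il6st, the gene for gp130, fell with G-NHX9 (-1.02 ± 0.19, 0.00012), G-NHX9-midi-21FGAA (-0.71 ± 0.19, 0.011) and G-NHX9-DDNA (-0.65 ± 0.19, 0.019). With G-NHX9-DDNA, the call of Lifr was lost without G-NHX9-DDNA replicate 2 or 4 (0.054 to 0.085) and that of Il6st without Empty replicate 2 or G-NHX9-DDNA replicate 2 or 3 (0.062 to 0.074). Kit, the stem cell factor receptor, rose with G-NHX9-midi-21FGAA (1.38 ± 0.26, 0.00078), and Il5ra, the IL-5 receptor of eosinophils, rose with it (1.25 ± 0.33, 0.0097) and with G-NHX9-DDNA (1.30 ± 0.33, 0.0074). Il7r fell by 1.15 with G-NHX9 (0.00032), where it stood at 149 ± 49 CPM against 331 ± 46.1 CPM in Empty cells, and it was at 98.1 ± 39.5 CPM with G-NHX9-midi and 172 ± 65.6 CPM with G-NHX9-8FA, again below every Empty library. Il6ra and Csf2ra, the α chains for IL-6 and GM-CSF, fell with G-NHX9-21FGAA (-0.79 ± 0.13, 7.2e-05 and -0.77 ± 0.11, 8.8e-06).

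Of 9 genes for JAKs and other STATs, 1 rose and 2 fell with G-NHX9, 1 and 0 with G-NHX9-8FA, 2 and 2 with G-NHX9-midi, 2 and 3 with G-NHX9-21FGAA, 0 and 1 with G-NHX9-midi-21FGAA and 0 and 1 with G-NHX9-DDNA. Stat4, which responds to IL-12, rose with 4 of the constructs, by 0.84 ± 0.16 with G-NHX9 (9.5e-05), 1.09 ± 0.16 with G-NHX9-8FA (2.8e-06), 1.34 ± 0.16 with G-NHX9-midi (3.3e-08) and 0.70 ± 0.16 with G-NHX9-21FGAA (0.0013). Stat6, the mediator of IL-4, fell with G-NHX9 (-0.36 ± 0.09, 0.0018) and G-NHX9-21FGAA (-0.33 ± 0.09, 0.0052). Jak1 fell with G-NHX9 (-0.32 ± 0.08, 0.0014) and G-NHX9-midi (-0.25 ± 0.08, 0.0087), and Stat3 with G-NHX9-midi-21FGAA (-0.30 ± 0.07, 0.0025). Jak2, the kinase of the GM-CSF, IL-3 and erythropoietin receptors, was at 208 ± 33.8 CPM in Empty cells. It rose by 0.36 ± 0.12 with G-NHX9-21FGAA (0.024) and by 0.33 ± 0.12 with G-NHX9-midi (0.028). Those calls of Jak2 were lost without Empty replicate 5 or G-NHX9-21FGAA replicate 1 (0.072 to 0.08), and without Empty replicate 4 or 5 or G-NHX9-midi replicate 1 or 2 (0.056 to 0.13). With G-NHX9 the difference of Jak2 was 0.26 ± 0.12 (0.099, and 0.033 with the block).

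Of 13 further inhibitors of the pathway, 2 were higher and 3 lower with G-NHX9-midi, where 40.5% of all genes were called. With G-NHX9-8FA and G-NHX9-21FGAA 1 was higher and 1 lower each (26.6% and 27.1% of all genes). With G-NHX9 and G-NHX9-midi-21FGAA 1 was lower (32.1% and 16.9%), and with G-NHX9-DDNA 0 were called (17.2%). The share called lay below that of all genes with every construct. Ptpn2, a phosphatase that acts on JAKs and STATs, rose by 1.32 ± 0.16 with G-NHX9-midi (8.2e-08), by 0.56 ± 0.16 with G-NHX9-8FA (0.0094) and by 0.52 ± 0.16 with G-NHX9-21FGAA (0.016). The latter pair of calls was lost without Empty replicate 4 or 5 and, respectively, without G-NHX9-8FA replicate 5 (0.051 to 0.055) or G-NHX9-21FGAA replicate 1 (0.053 to 0.058). Pias4, a SUMO ligase, fell by 0.33 with G-NHX9-21FGAA (0.002).

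Of 19 other genes known as STAT5 targets in various tissues, 2 rose and 5 fell with G-NHX9, 1 and 3 with G-NHX9-8FA, 2 and 7 with G-NHX9-midi, 3 and 5 with G-NHX9-21FGAA, 2 and 1 with G-NHX9-midi-21FGAA and 1 and 2 with G-NHX9-DDNA. Their median log2 difference was -0.22, -0.21, -0.30, 0.07, -0.05 and 0.13 in this order. The share of all genes called was 32.1, 26.6, 40.5, 27.1, 16.9 and 17.2% in the same order. The share of the 19 lay above it with 3 of the constructs and below it with the others. Myc rose with G-NHX9 (0.98 ± 0.19, 0.00019) and G-NHX9-midi (0.72 ± 0.19, 0.0029), and Igf1, a target of growth hormone, with G-NHX9-midi (1.51 ± 0.20, 2.5e-07) and G-NHX9-8FA (0.92 ± 0.20, 0.00063). Gadd45g, a stress response gene, fell with G-NHX9 (-1.20 ± 0.19, 9.2e-06), G-NHX9-8FA (-1.01 ± 0.19, 0.00013) and G-NHX9-midi (-1.42 ± 0.19, 3.7e-07), and Ccnd1, the cyclin D1 gene, with G-NHX9 (-0.87 ± 0.23, 0.0039). Tfrc, the transferrin receptor of iron uptake, rose with G-NHX9-21FGAA (1.29 ± 0.25, 0.00028), G-NHX9-midi-21FGAA (1.28 ± 0.25, 0.0011) and G-NHX9-DDNA (1.49 ± 0.25, 0.00044). Gzmb, a granzyme gene, rose with G-NHX9-21FGAA (1.40 ± 0.28, 0.00035) and G-NHX9-midi-21FGAA (1.31 ± 0.28, 0.0018) and fell by 1.32 with G-NHX9-midi (0.00024). Bcl6, a repressor that STAT5 itself represses, fell with G-NHX9-21FGAA (-0.88 ± 0.22, 0.0029), G-NHX9-midi-21FGAA (-0.91 ± 0.22, 0.0047) and G-NHX9-DDNA (-0.82 ± 0.22, 0.0095). Over all these lists and the casein locus, 13 genes were called with G-NHX9-DDNA against Empty, and 23 in the blocked fit, while the share of all genes called went from 17.2% to 25%. Of the 13, 0 were genes of the casein locus.

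Some further calls among these lists were lost when single libraries were left out. With G-NHX9, that of Ptpn1 (-0.38, adjusted p = 0.032) was lost without Empty replicate 3, 4 or 5 or G-NHX9 replicate 1, 2 or 3 (0.057 to 0.1). With G-NHX9-8FA, Socs5 (-0.43, 0.027) was lost without Empty replicate 4 or 5 or G-NHX9-8FA replicate 4 (0.05 to 0.081), and Gzmb (-0.79, 0.03) without Empty replicate 1, 2 or 3 or G-NHX9-8FA replicate 1, 4 or 5 (0.05 to 0.097). With G-NHX9-midi, Stat6 (-0.24, 0.03) was lost without Empty replicate 1 or G-NHX9-midi replicate 2 or 3 (0.08 to 0.093), Socs5 (-0.42, 0.023) without Empty replicate 5 or G-NHX9-midi replicate 2 (0.074 to 0.082), Pias3 (-0.58, 0.0094) without Empty replicate 5 (0.06), and Ptpn6 (0.28, 0.047) without Empty replicate 2, 4 or 5 or G-NHX9-midi replicate 2, 3, 4 or 5 (0.056 to 0.16). With G-NHX9-21FGAA, Il2ra (1.38, 0.027) was lost without Empty replicate 1, 2 or 3 or G-NHX9-21FGAA replicate 1 or 5 (0.052 to 0.081), Tyk2 (-0.25, 0.01) without Empty replicate 5 or G-NHX9-21FGAA replicate 5 (0.055 to 0.056), and Gadd45g (-0.55, 0.027) without Empty replicate 2, 3 or 5 or G-NHX9-21FGAA replicate 4 or 5 (0.052 to 0.11). With G-NHX9-midi-21FGAA, Pias4 (-0.26, 0.021) was lost without Empty replicate 4 or 5 or G-NHX9-midi-21FGAA replicate 1 or 5 (0.06 to 0.087). With G-NHX9-DDNA, Csf3r (-0.64, 0.047) was lost without any Empty replicate or G-NHX9-DDNA replicate 2, 3 or 4 (0.056 to 0.13), Jak1 (-0.23, 0.038) without Empty replicates 2 to 5 or G-NHX9-DDNA replicates 1 to 3 (0.054 to 0.12), and Mcl1 (-0.40, 0.038) without Empty replicate 1, 2, 3 or 5 or G-NHX9-DDNA replicates 2 to 5 (0.051 to 0.089).

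The genes whose levels over the 35 libraries were most like those of Csn2, by Pearson r of log2 CPM among 12774 genes, were Osbpl3 (r = 0.911), Aldh1a3 (0.91), Mansc1 (0.907), Tmem248 (0.904) and Hid1 (0.904). Like Csn2 they stood highest in G-NHX9-8FA and G-NHX9-midi cells, which follows from their choice by likeness to Csn2 over the same libraries. Hid1 held 0.715 ± 0.34 CPM in Empty cells, 3 ± 1.24 CPM in G-NHX9 cells, 7.88 ± 2.28 CPM in G-NHX9-8FA cells and 14.5 ± 2.13 CPM in G-NHX9-midi cells. Aldh1a3, a retinaldehyde dehydrogenase gene, held 0.0925 ± 0.068, 0.588 ± 0.151, 4.63 ± 1.65 and 4.21 ± 1.32 CPM in the same order. Osbpl3 ranged much less, from 41.0 CPM in G-NHX9-midi-21FGAA cells to 73.7 CPM in G-NHX9-8FA cells. Among the 8 other genes, r with Csn2 was highest for Socs3 (0.71) and Pim1 (0.67).

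A different set of genes followed Csn2 once the mean of each condition was taken out. By the correlation of these deviations, Ampd2 (r = 0.912), Helz2 (0.901), Tanc1 (0.891), Rbpms (0.881) and Gm15800 (0.878) came first, and their condition means did not follow those of Csn2. Tanc1, for example, was lowest in G-NHX9-midi cells (5.71 ± 0.625 CPM, against 19.9 ± 5.53 CPM in Empty cells), where Csn2 was highest. All these values are over 35 libraries that share conditions and replicate numbers, and no p-value is given for them.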

How the data were processed

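Total RNA of 35 lin- HSPC cultures was sequenced from stranded libraries. The authors deposited counts of reads per gene (49671 genes), as whole numbers with no normalization. The submitters' processing notes name STAR 2.7.0d, HTSeq 0.11.2, DESeq2 and mm10, while the annotation and the strand setting of the counting are not given in the sources used here. Methods and labels differ on the read length and on the number of replicates, and all 5 libraries per condition were used.

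For the analysis, edgeR 4.0.16 and limma 3.58.1 were run under R 4.3.3. Genes were filtered with filterByExpr by condition (17166 genes with 99.96% of the counts) and scaled by TMM, and a quasi-likelihood model with a mean per condition was fitted to all libraries (28 residual degrees of freedom). P-values of 12 comparisons were adjusted by the Benjamini-Hochberg method over all genes. DESeq2 1.42.0 was an alternative, besides other scalings, other filters, the replicate number as a block, a sex-linked score as a covariate, the 2 conditions alone and fits without single libraries. The scripts were tested on simulated data. Figures were drawn in Python 3.11.15 with matplotlib 3.10.9. Precision follows from the depth, and the floor of 3 counts covers counting error only. The sources do not say that libraries came from separate mice, so p-values measure the spread between these libraries.

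The genes and lists were chosen with earlier results of these data known. Csn2 was to be tested in all comparisons but those of G-NHX9-8FA and G-NHX9-midi with Empty, and the other comparisons with these libraries were dropped too. Named were all 9 genes, the casein locus, from each other list the 2 largest rises and 2 largest falls called per construct against Empty at a mean of at least 1 CPM, Csf2rb, Epor, Il3ra, Prlr and Jak2, and the 5 genes most like Csn2 by each measure. Of the genes this rule names, 1 is not reported here. Btn1a1 and Epcam were named after their values were seen. Correlations were taken on log2 CPM after a prior count of 2 had been added.

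The labels number the libraries 1 to 5 in each condition. Deviations from the condition mean correlated at 0.232 on average for the same number in 2 conditions and at -0.057 for different numbers. In 5 comparisons (G-NHX9, G-NHX9-midi-21FGAA and G-NHX9-DDNA against Empty, G-NHX9-21FGAA and G-NHX9-DDNA against G-NHX9) all pairs exceeded 0.1, so the numbers pair these libraries. The model without the block was used for all results, with the blocked value beside those it changes.

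Positions are from GENCODE M21 (GRCm38), which holds 88.3% of the identifiers with the same version and 99.5% without it. Promoter sequences are from RefSeq.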

Additional observations from a re-analysis of the deposited data

Results flagged for a closer look

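In groups of 5 libraries, a library was singled out where its gap to the nearest other took more of the whole range of its group than Dixon's limit at 95% allows. This held in 8 of 63 groups (12.7%). The limit gives about 1 in 20 for independent groups of normal values. These groups share replicate numbers and their CPM values need not be normal, so no excess over chance is read from this share.

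Of the 8 groups, 5 concern Osm, in which replicate 1 stood above the others at 325 CPM in Empty cells (next 122), 252 CPM in G-NHX9 cells (next 72.3), 276 CPM in G-NHX9-21FGAA cells (next 125), 229 CPM in G-NHX9-midi-21FGAA cells (next 117) and 252 CPM in G-NHX9-DDNA cells (next 105). Replicate 1 was also the highest with G-NHX9-8FA and G-NHX9-midi, by a smaller gap.

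Csn2 stood apart in G-NHX9-midi-21FGAA replicate 5 (5.13 CPM, next 1.18) and in G-NHX9-DDNA replicate 4 (1.5 CPM, next 0.403). Socs1 was low in G-NHX9-21FGAA replicate 1 (34.8 CPM, next 47.5).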

How the results depend on the processing

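No called fold change of the 9 genes turned its direction under any alternative, and 584 of 667 recalculations kept the call. For the other named genes outside the casein locus 1985 of 2265 kept it, and none reversed. Differences that were not called were recalculated with the replicate number as a block alone, where Osm with G-NHX9-21FGAA against Empty went from -0.02 to 0.06. Csn2 levels stayed within 1 SD under both other scalings, in 7 of 7 conditions each. Leaving out 1 of 5 libraries cannot move a mean by 1 SD, so that setting was no test of these levels. Without its replicate 5, the G-NHX9-midi-21FGAA mean went from 1.45 to 0.531 CPM. Counts are of the 8 genes other than Csn2 past the threshold unless stated. Without TMM factors, G-NHX9-8FA against G-NHX9 and G-NHX9-midi against G-NHX9-8FA had 2 in place of 1 each. With all genes that had a count, G-NHX9-8FA against Empty had 1 in place of 4 and G-NHX9-21FGAA against Empty 0 in place of 1. With only the 2 conditions, G-NHX9-8FA against Empty had 1 and G-NHX9-midi against G-NHX9-8FA 0. With DESeq2, G-NHX9-DDNA against Empty and G-NHX9-midi against G-NHX9-8FA had 2 each. With the replicate number as a block, G-NHX9-DDNA against Empty had 2, G-NHX9-21FGAA against G-NHX9 3 and G-NHX9-midi against G-NHX9-8FA 2. Of the pathway genes, casein locus included, 31 in place of 20 were called with G-NHX9-8FA and 23 in place of 13 with G-NHX9-DDNA. The share of all genes called rose with the block too, from 26.6% to 34.5% with G-NHX9-8FA and from 17.2% to 25% with G-NHX9-DDNA. Of the 20, 3 were casein genes, whose calls had their direction set in advance. In comparisons whose numbers do not pair, the block added Osm with G-NHX9-midi against Empty and with G-NHX9-midi-21FGAA against G-NHX9-midi, and Socs3 between G-NHX9-midi and G-NHX9-8FA, and it changed no other member call than these and those given above. For these the cause was not tested, apart from the smaller number of libraries and the other genes tested.

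Leaving out single libraries or, as an alternative added after seeing the data, all 7 libraries of a number gave 2 to 3 calls for G-NHX9 against Empty, 0 to 4 for G-NHX9-8FA, 3 to 4 for G-NHX9-midi, 0 to 1 for G-NHX9-21FGAA, 1 to 2 for G-NHX9-midi-21FGAA and 0 to 2 for G-NHX9-DDNA. Against G-NHX9 they gave 1 for G-NHX9-8FA, 2 to 3 for G-NHX9-midi, 1 to 2 for G-NHX9-21FGAA and 1 to 3 for G-NHX9-DDNA, with 3 to 4 for G-NHX9-midi-21FGAA against G-NHX9-midi and 0 to 2 for G-NHX9-midi against G-NHX9-8FA. Pathway genes against Empty, casein locus included, numbered 19 to 26 (G-NHX9), 15 to 21 (G-NHX9-8FA), 23 to 40 (G-NHX9-midi), 18 to 30 (G-NHX9-21FGAA), 9 to 18 (G-NHX9-midi-21FGAA) and 2 to 18 (G-NHX9-DDNA). The share of all genes called was not taken in these fits, so none of these ranges can be set against it. Depth limits the casein neighbors, which held 0 to 3 counts in Empty libraries.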
